A study of Mus musculus with 9 samples.

Results

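The genes of MHC class I antigen presentation were followed across mouse embryonic stem cells that differed in β-catenin, the junction and Wnt signalling protein encoded by Ctnnb1. The 9 genes were chosen by name, not by a threshold on their values: B2m, H2-K1, H2-D1, Tap1, Tap2, Tapbp, Psmb8, Psmb9 and Nlrc5. Of these 9 genes, 7 had at least 1 array feature annotated with that symbol alone and were measured among 19938 genes. The other 2, H2-K1 and H2-D1, were annotated only on features that list both together, which are given separately below. Transcripts were measured on a whole-transcript Affymetrix array in 3 groups of 3 biological replicates, all on a mixed S129S6-C57BL/6 background and all grown on gelatin with 15% serum and 1000 U/ml of LIF, a cytokine that keeps stem cells undifferentiated. Flox cells, labelled as controls, had lost 1 Ctnnb1 allele and kept the other in floxed form. Null cells had lost both. Null Eα cells were null cells with stable expression of a fusion of E-cadherin to α-catenin, a protein that can join cadherin to the actin skeleton without β-catenin. The labels give neither the promoter of the fusion nor the number of clones, and do not say whether replicates came from separate lines, so the p-values measure the spread between these samples, which may be technical, and genotype and line cannot be told apart.

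MHC class I molecules show fragments of a cell's own proteins to CD8+ T cells. The proteasome makes the fragments, and its inducible catalytic subunits, among them Psmb8 and Psmb9, replace constitutive ones to form the immunoproteasome. The Tap1-Tap2 transporter carries peptides into the endoplasmic reticulum, tapasin (Tapbp) bridges the transporter to empty class I molecules, and a heavy chain such as H2-K1 or H2-D1 pairs with the light chain B2m around the peptide. Nlrc5 is a transactivator that acts on class I promoters through factors bound at their X and Y boxes, and interferon-γ raises the whole set, in part through Irf1. Undifferentiated embryonic stem cells are known for low class I at the surface.

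Because these promoters carry well-described shared elements, 5 of them are printed first. They are RefSeq windows (GRCm38.p6) of 300 bases, with 250 before and 50 after the transcription start, each written 5′ to 3′ on the gene's strand. Capitals mark matches, on either strand, to the 5 short motifs spelled out after the sequences. Of the 9 genes, 7 had a window. Where there were several, as for H2-K1 with 2, the window nearest the annotated 5′ end was used. The strands and positions are B2m at chr2:122147437-122147736 (plus), H2-K1 at chr17:34000298-34000597 (minus), H2-D1 at chr17:35262844-35263143 (plus), Tap1 at chr17:34187306-34187605 (plus) and Psmb8 at chr17:34197945-34198244 (plus).
B2m: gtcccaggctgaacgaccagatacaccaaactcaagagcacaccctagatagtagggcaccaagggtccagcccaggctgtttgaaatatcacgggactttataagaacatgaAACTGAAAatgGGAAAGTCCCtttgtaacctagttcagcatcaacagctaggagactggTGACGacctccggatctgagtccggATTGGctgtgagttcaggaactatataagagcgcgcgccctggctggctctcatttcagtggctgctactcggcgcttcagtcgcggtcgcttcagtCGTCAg
H2-K1: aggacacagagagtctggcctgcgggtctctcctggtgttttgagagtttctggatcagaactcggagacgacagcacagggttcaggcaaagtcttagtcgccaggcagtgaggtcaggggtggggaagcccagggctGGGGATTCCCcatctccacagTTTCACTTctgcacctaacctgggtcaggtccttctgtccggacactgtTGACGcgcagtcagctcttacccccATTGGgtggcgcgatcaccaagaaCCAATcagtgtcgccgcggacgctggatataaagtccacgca
H2-D1: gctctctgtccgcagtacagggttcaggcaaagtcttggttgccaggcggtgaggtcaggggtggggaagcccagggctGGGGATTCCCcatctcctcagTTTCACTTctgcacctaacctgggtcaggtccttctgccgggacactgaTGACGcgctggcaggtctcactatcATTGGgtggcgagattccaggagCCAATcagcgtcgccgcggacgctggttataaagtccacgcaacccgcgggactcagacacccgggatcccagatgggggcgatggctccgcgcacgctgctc
Tap1: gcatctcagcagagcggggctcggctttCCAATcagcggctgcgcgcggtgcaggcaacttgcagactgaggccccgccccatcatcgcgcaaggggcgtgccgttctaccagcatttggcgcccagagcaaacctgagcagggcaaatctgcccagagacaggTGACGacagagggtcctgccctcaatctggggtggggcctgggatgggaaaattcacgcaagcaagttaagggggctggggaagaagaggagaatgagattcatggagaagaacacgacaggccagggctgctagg
Psmb8: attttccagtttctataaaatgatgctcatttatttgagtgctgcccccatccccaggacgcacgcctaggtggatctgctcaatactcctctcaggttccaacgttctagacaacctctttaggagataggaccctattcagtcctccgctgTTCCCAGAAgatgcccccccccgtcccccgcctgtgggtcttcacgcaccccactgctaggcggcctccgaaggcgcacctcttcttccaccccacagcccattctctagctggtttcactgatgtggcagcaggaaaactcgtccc
The motifs were chosen after the B2m and H2-K1 windows had been read, so their presence there is a description. An NF-κB motif, GGGNN directly followed by TTNCC, was found in the windows of B2m, H2-K1 and H2-D1 and in 4.71% of 27024 windows of the same length. The interferon response core TTTCNNTT was found in the same windows of B2m, H2-K1 and H2-D1 and in 24.1% of all windows. The letters of the X2 box core (TGACG) occurred in the windows of B2m, H2-K1, H2-D1, Tap1 and Psmb9 and in 20.9% of all, and those of the Y box (ATTGG) in the same windows, in that of Tapbp and in 38% of all. The Tap1 and Psmb9 windows overlap and their matches are the same bases, at chr17:34187470-34187474 for the X2 box core and chr17:34187334-34187338 for the Y box. An ATTGG followed a TGACG on the gene's strand, with 20 bases between them, in B2m, H2-K1 and H2-D1. A TGACG followed by an ATTGG at a distance of 15 to 25 bases was found in 0.463% of all windows. From the NF-κB motif to the Y box, the H2-K1 and H2-D1 windows were identical at 89 of 100 bases, so matches in the windows of these genes are not independent of each other. A gamma-activated motif, TTCNNNGAA, was found in the Psmb8 window and in 8.42% of all windows. The motifs can overlap one another, and a match in letters is not a bound site.

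Across the series the arrays separated by group. Array medians differed little, at 5.95 to 6.06 log2 units, but the lower quartile ran from 4.37 to 4.40 in flox, from 4.52 to 4.55 in null and from 4.56 to 4.63 in null Eα. Null arrays correlated with null Eα arrays at 0.964 to 0.980, and null Eα replicate 3 was the nearest to null. It was also the nearest of its group to each flox array, at 0.951 to 0.956, against 0.945 to 0.954 for replicates 1 and 2. Ctnnb1 itself averaged 0.65 ± 0.07 log2 units lower in null than in flox (adjusted p = 2.82e-05) and 0.93 ± 0.07 lower in null Eα (adjusted p = 2.66e-06). It still read 10.47 to 10.55 in null and 10.13 to 10.32 in null Eα, against 11.13 to 11.21 in flox, so a bright signal remained in the cells labelled as having lost both alleles. Where its probes lie relative to the deletion is not given in the sources used here, so this feature does not check whether the alleles were lost.

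All 7 measured class I presentation genes were higher in null than in flox cells, by 2.22-fold for B2m to 4.57-fold for Psmb8, whose flox signal was dim. In null Eα cells Nlrc5 overlapped with null, Tap1, Tap2, Psmb8 and Psmb9 lay between flox and null, and B2m and Tapbp overlapped with flox. Counted at an adjusted p under 0.05, 7 of 7 were higher and 0 lower in null against flox, with a median difference of 1.47 log2 units over the 7 and 0.06 over all genes. In that comparison 55.2% of all 19938 genes were called, 26.5% as higher and 28.7% as lower. Against flox, null Eα gave 5 of 7 higher and 0 lower, with a median of 0.75 against 0.07 for all genes, and 63.7% of all genes were called, 32.1% as higher and 31.6% as lower. Against null, null Eα gave 6 of 7 lower and 0 higher, with a median of -0.87 against 0.05 for all genes, and 31.7% of all genes were called, 13.6% as higher and 18.1% as lower. The comparisons share arrays in pairs, so they are not independent of each other. How many of all genes have groups whose arrays do not overlap was not counted. A lack of overlap is therefore not read as particular to the genes named here.

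**Figure D1:**
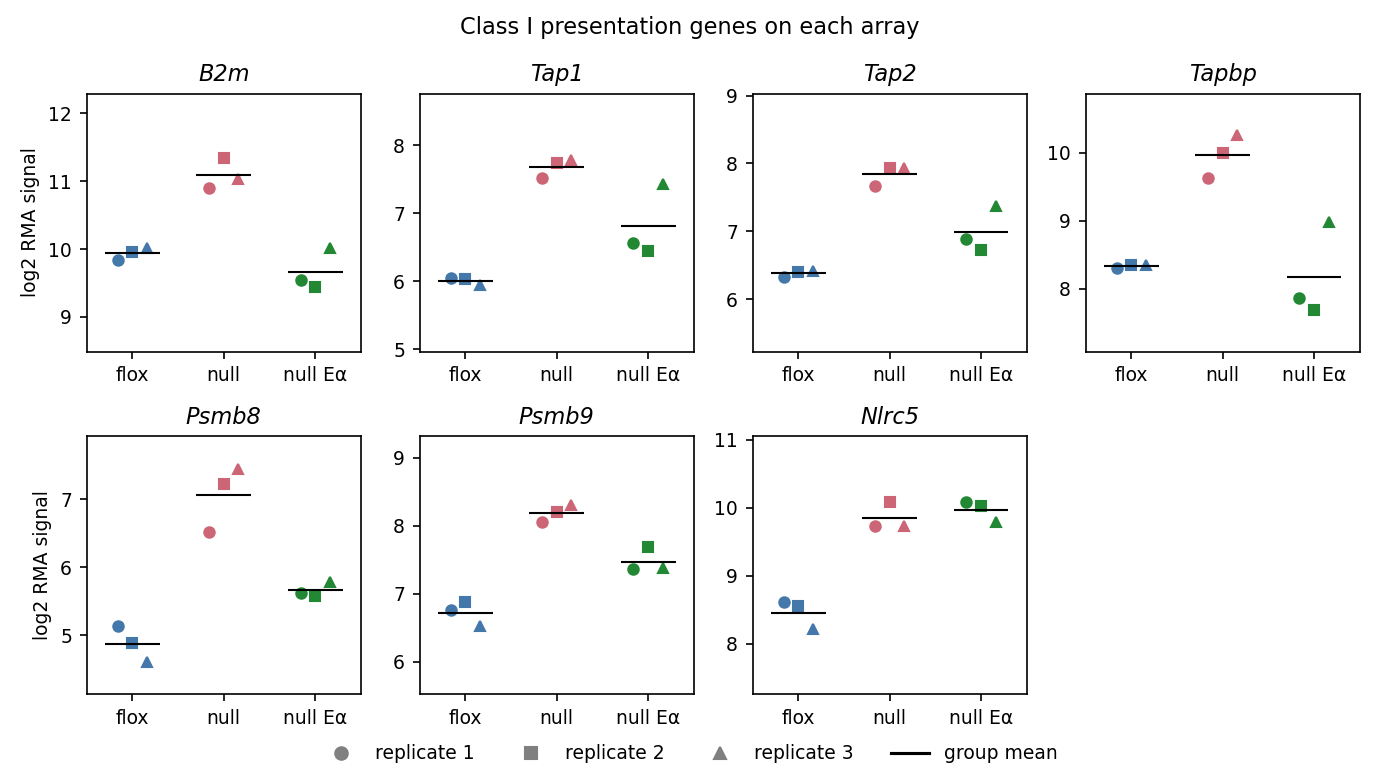
Deposited log2 RMA signal of the 7 measured class I presentation genes on each of the 9 arrays, with the axis spanning the same number of log2 units in every panel. Symbols are replicates 1 to 3, colours are groups and bars are group means. For all 7 genes the null arrays lie above the flox arrays. The share of all genes that separate in this way was not counted. Null Eα replicate 3 is the highest of its group for B2m, Tap1, Tap2, Tapbp and Psmb8 and not for Psmb9 or Nlrc5.

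Each call rests on differences that are set against the spread by limma, with Benjamini-Hochberg adjustment over all genes, and ± gives limma's standard error. An exact two-sided permutation test on 3 arrays against 3 cannot go below p = 0.1, and it gave p = 0.1 for every class I gene that limma called. The balance of calls over the genome moved with the scaling. The calls were 48% higher in null against flox, 50.4% in null Eα against flox and 43% in null Eα against null, which became 66.2%, 72.3% and 65.6% when each chromosome was centred on its own brighter genes, while centring each array on its median gave 40.1% for null Eα against flox. No call among the 7 class I genes was lost under these scalings.

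**Figure D2:**
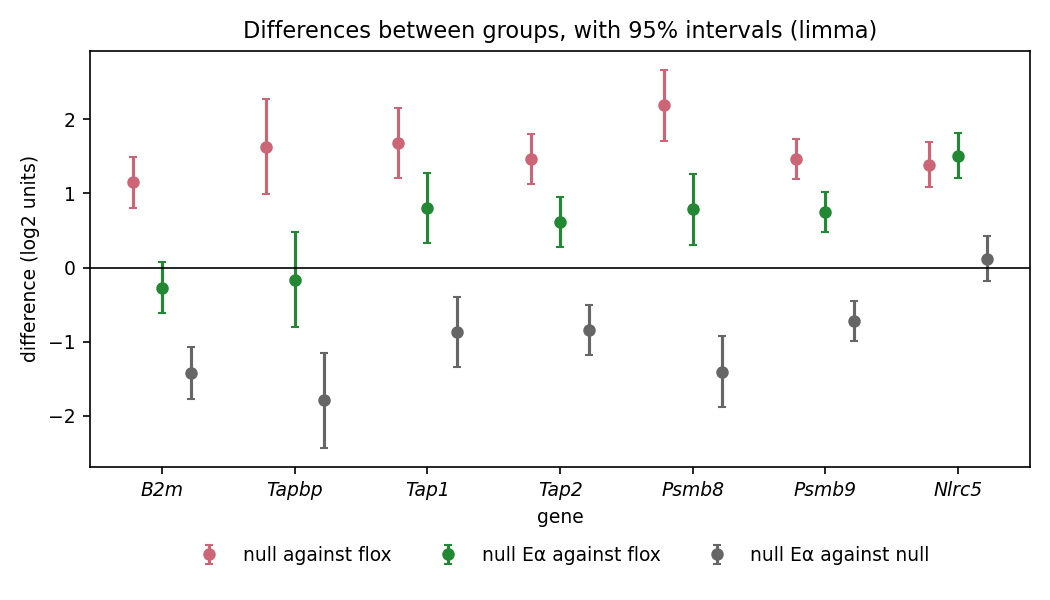
Differences between group means of the 7 measured class I presentation genes, in log2 units, with 95% intervals from limma. Colours are the 3 comparisons. The intervals of null Eα against flox include 0 for B2m and Tapbp, and that of null Eα against null includes 0 for Nlrc5.

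B2m, the light chain of every classical class I molecule, was read on chromosome 2 (GRCm38.p6, 122147687 to 122153082). Its flox arrays read 9.84, 9.96 and 10.02, its null arrays 10.90, 11.34 and 11.03, and its null Eα arrays 9.54, 9.44 and 10.02. The null arrays stood apart above both other groups, whose ranges met at the highest array of each. B2m was 1.15 ± 0.16 log2 units higher in null than in flox, 2.22-fold (adjusted p = 0.000107), and fell by 1.42 ± 0.16 from null to null Eα, 2.68-fold (adjusted p = 0.00011). Null Eα differed from flox by -0.27 ± 0.16 (adjusted p = 0.144, 95% interval -0.62 to 0.07). Without null Eα replicate 3 this difference was -0.448 and was called (adjusted p = 0.0106), with B2m lower in null Eα than in flox.

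The heavy chains H2-K1 and H2-D1, the partners of B2m, lie on chromosome 17 at 33996012 to 34000619 and at 35263094 to 35267497. They share 2 features with each other and with LOC547349, so the values below belong to neither gene alone, and cross-hybridisation with other class I heavy chains was not tested. One shared feature read 8.19, 8.21 and 8.11 on the flox arrays, 8.39, 8.96 and 8.77 on the null arrays, and 7.67, 7.54 and 7.80 on the null Eα arrays. Its 3 groups did not overlap, with null highest and null Eα lowest. In a fit over all features, chosen after the shared annotation had been seen, it was 0.53 ± 0.14 higher in null than in flox (adjusted p = 0.0122), 0.50 ± 0.14 lower in null Eα than in flox (difference -0.50, adjusted p = 0.0151) and 1.03 ± 0.14 lower in null Eα than in null (difference -1.03, adjusted p = 0.00144). The other shared feature read 8.52, 8.54 and 8.64 in flox, 8.79, 9.31 and 9.33 in null and 7.83, 7.86 and 8.64 in null Eα, where replicate 3 reached the highest flox array. Its differences were 0.58 ± 0.23 for null against flox (adjusted p = 0.0644), -0.46 ± 0.23 for null Eα against flox (adjusted p = 0.117) and -1.03 ± 0.23 for null Eα against null (adjusted p = 0.0134). Only the last of these passed the threshold. Without null Eα replicate 3, an alternative chosen after seeing the data, the first 2 passed as well, at 0.576 (adjusted p = 0.0112) and -0.723 (adjusted p = 0.00654). Both shared features, like B2m, were called lower in null Eα than in null.

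Tap1 and Tap2 encode the paired subunits of the peptide transporter and lie close together on chromosome 17, at 34187556 to 34197225 and at 34204479 to 34216321. For Tap1, the flox arrays gave 6.05, 6.03 and 5.94, the null arrays 7.52, 7.74 and 7.79, and the null Eα arrays 6.57, 6.44 and 7.43. No array of one group reached into another, although null Eα replicate 3 came close to the null arrays. Tap1 rose by 1.68 ± 0.21 log2 units from flox to null, 3.20-fold (adjusted p = 6.75e-05). It was 0.81 ± 0.21 higher in null Eα than in flox, 1.75-fold (adjusted p = 0.00789), and fell by 0.87 ± 0.21 from null to null Eα (adjusted p = 0.0111). Leaving out null Eα replicate 3 reduced the difference from flox to 0.496, which was still called.

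Tap2 followed with 6.33, 6.40 and 6.42 in flox, 7.67, 7.93 and 7.93 in null, and 6.89, 6.72 and 7.38 in null Eα. Again the groups did not overlap, with null Eα in the middle. Its rise in null was 1.46 ± 0.15, 2.75-fold (adjusted p = 1.5e-05). Null Eα was 0.61 ± 0.15 above flox, 1.53-fold (adjusted p = 0.00548), and 0.85 ± 0.15 below null (difference -0.85, adjusted p = 0.00207).

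Tapbp, the tapasin that holds an empty class I molecule at the transporter, lies on chromosome 17 (33919478 to 33929290). Its flox arrays were close together at 8.31, 8.35 and 8.35, its null arrays spread over 9.63, 9.999 and 10.27, and its null Eα arrays over 7.86, 7.68 and 8.98. Replicates 1 and 2 of null Eα were below every flox array and replicate 3 above them, so those groups overlapped, while null was higher than both. Tapbp rose by 1.63 ± 0.29 in null, 3.10-fold (adjusted p = 0.000713), and fell by 1.79 ± 0.29 from null to null Eα, 3.46-fold (adjusted p = 0.00111). Null Eα differed from flox by -0.16 ± 0.29 (adjusted p = 0.631, 95% interval -0.80 to 0.48). That value rests on 1 array. It was -0.564 and called lower without null Eα replicate 3 (adjusted p = 0.0103), 0.082 without replicate 2, 0.152 after quantile normalization and 0.094 with each chromosome centred.

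Psmb8, the inducible subunit that takes the place of Psmb5, had the largest rise in null among the 7 genes. It lies between Tap1 and Tap2 on chromosome 17, at 34198195 to 34201454. The flox arrays gave 5.14, 4.88 and 4.60, the null arrays 6.51, 7.23 and 7.45, and the null Eα arrays 5.62, 5.58 and 5.78. The groups were apart, the null Eα arrays were close together, and null replicate 1 was the lowest null array. The flox signals stood at the 28.8 to 37.2 percentile of their arrays and below 6.01, the median over features of their mean signal, and no measure of background was used here, so the size of the rise and its rank among the 7 genes are less certain than its direction. Psmb8 rose by 2.19 ± 0.22 log2 units in null, 4.57-fold (adjusted p = 1.03e-05), was 0.78 ± 0.22 higher in null Eα than in flox, 1.72-fold (adjusted p = 0.00965), and fell by 1.41 ± 0.22 from null to null Eα (adjusted p = 0.000877).

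Psmb9, the inducible counterpart of Psmb6, starts 225 bases from Tap1 on the opposite strand of chromosome 17 (34182030 to 34187330), and their promoter windows overlap. Its arrays read 6.76, 6.88 and 6.52 in flox, 8.05, 8.20 and 8.31 in null, and 7.36, 7.68 and 7.37 in null Eα. The 3 groups were separate. The rise in null was 1.47 ± 0.12, 2.77-fold (adjusted p = 2.83e-06), null Eα stood 0.75 ± 0.12 above flox, 1.68-fold (adjusted p = 0.000413), and the fall from null to null Eα was 0.72 ± 0.12 (difference -0.72, adjusted p = 0.00153). Here null Eα replicate 3 lay 0.15 below the mean of replicates 1 and 2 (difference -0.15), whereas it lay 0.93 above that mean for Tap1, the divergent neighbour.

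Of the 3 constitutive catalytic subunits, 0 were called higher in null than in flox. Psmb5 read 12.07, 12.05 and 12.03 in flox, 9.67, 9.81 and 9.65 in null, and 9.88, 9.80 and 9.86 in null Eα, which put flox above both other groups. It fell by 2.34 ± 0.07 in null (adjusted p = 3.3e-09) and fell by 2.20 ± 0.07 in null Eα (adjusted p = 2.13e-08), and null Eα differed from null by 0.13 ± 0.07 (adjusted p = 0.173). Psmb6 differed between null and flox by 0.01 ± 0.07 (adjusted p = 0.927) and Psmb7 by 0.13 ± 0.08 (adjusted p = 0.206), but with each chromosome centred both were called higher, at 0.251 and 0.283. Psmb10, the inducible counterpart of Psmb7, gave 7.70, 7.63 and 7.62 in flox, 8.37, 8.69 and 8.86 in null, and 7.17, 7.30 and 7.50 in null Eα. It was higher in null by 0.99 ± 0.12 (adjusted p = 6.45e-05) and lower in null Eα than in null by 1.32 ± 0.12 (difference -1.32, adjusted p = 4.67e-05). Against flox, null Eα was at -0.33 ± 0.12 (adjusted p = 0.0409), a call that was lost without any 1 of the 3 flox arrays, null replicate 2, or null Eα replicate 1 or 2 and after quantile normalization (-0.09, adjusted p = 0.573), and that turned to 0.331 with each chromosome centred. All 3 inducible subunits therefore rose in null, and in null Eα Psmb8 and Psmb9 were above flox.

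**Figure D3:**
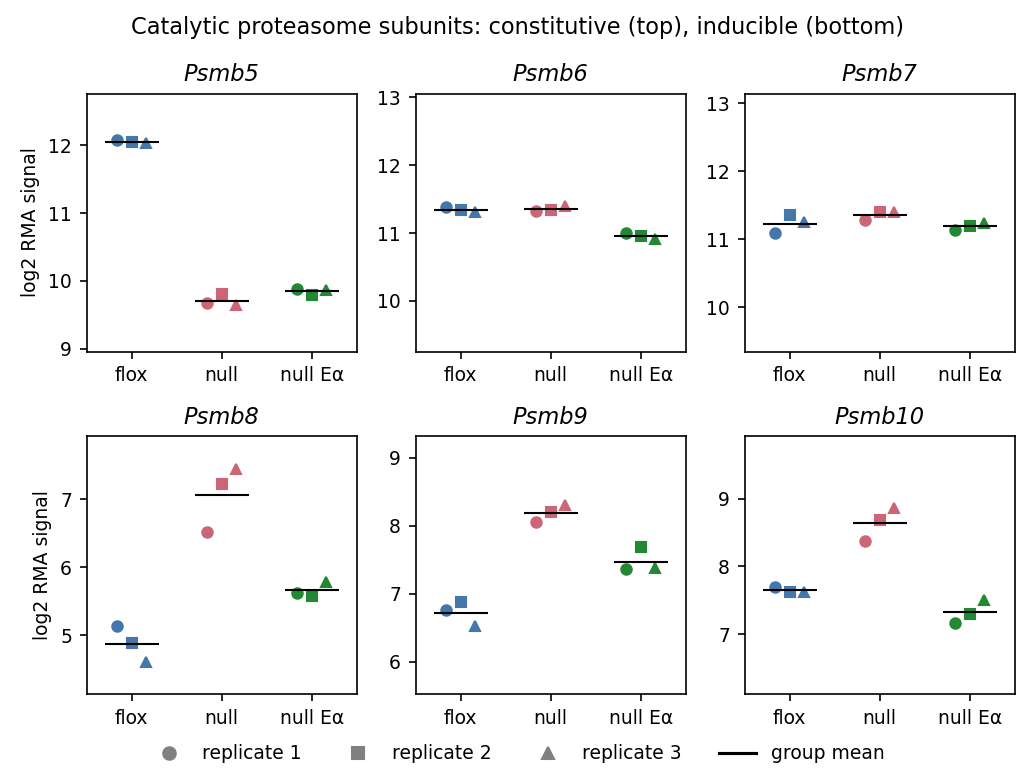
Log2 RMA signal of the constitutive catalytic proteasome subunits (top) and of the inducible subunit that replaces each (bottom) on the 9 arrays. Symbols are replicates, colours are groups and bars are group means. Psmb5 is highest on the flox arrays, at 12.03 to 12.07, while Psmb8, Psmb9 and Psmb10 are highest on the null arrays. Levels of different genes are not comparable on this scale.

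Of the 10 listed proteasome core and activator genes other than Psmb8 and Psmb9, 5 were higher and 2 lower in null than in flox, 2 higher and 6 lower in null Eα than in flox, and 0 higher and 7 lower in null Eα than in null. The medians were 0.23, -0.33 and -0.37. Among all genes, 26.5% were called higher and 28.7% lower in null against flox. In null Eα the shares were 32.1% and 31.6% against flox, and 13.6% and 18.1% against null. Whether the list differs from these shares was not tested. Pomp, the chaperone that assembles new proteasomes, rose by 1.9 ± 0.06 in null (adjusted p = 6.6e-09) and by 1.57 ± 0.06 in null Eα (adjusted p = 5.31e-08). Psme3, an activator subunit, fell by 0.75 ± 0.07 in null (limma adjusted p = 5.27e-06) and by 1.10 ± 0.07 in null Eα (limma adjusted p = 5.06e-07). The activator subunit Psme1, named after its values were seen, was 0.96 ± 0.13 higher in null (adjusted p = 8.41e-05) and differed from flox by 0.24 ± 0.13 in null Eα (adjusted p = 0.118). Its partner Psme2, named in the same way, differed from flox by 0.23 ± 0.14 in null (adjusted p = 0.185) and fell by 0.97 ± 0.14 in null Eα (adjusted p = 0.000169). In null Psme2 was called higher after quantile normalization (0.404, adjusted p = 0.0239) and with each chromosome centred (0.33, adjusted p = 0.041). It was also called with only the groups compared and without null Eα replicate 2. In null Eα Psme1 was called higher after quantile normalization (0.546, adjusted p = 0.00399), with each chromosome centred and without null Eα replicate 2. With each chromosome centred, the list gave 8 higher in null against flox, and 6 higher and 3 lower in null Eα against flox.

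Nlrc5, the class I transactivator, was above flox in both null and null Eα. It lies on chromosome 8 (94434335 to 94527272). The flox arrays read 8.61, 8.55 and 8.21, the null arrays 9.73, 10.08 and 9.73, and the null Eα arrays 10.09, 10.02 and 9.79. All null and null Eα arrays were above all flox arrays and overlapped with each other. Nlrc5 rose by 1.39 ± 0.14 in null, 2.62-fold (adjusted p = 1.01e-05), and by 1.51 ± 0.14 in null Eα, 2.85-fold (adjusted p = 7.01e-06). Null Eα differed from null by 0.12 ± 0.14 (adjusted p = 0.529, 95% interval -0.19 to 0.42). The other 6 genes were called lower in null Eα than in null, but the difference between Nlrc5 and those genes was itself not tested.

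The size of the Nlrc5 difference depends on the feature. The gene has 19 features on this array, of which the brightest was kept by the rule, and the other 18 averaged between 3.62 and 7.10 in flox cells. In the fit over all features, chosen after seeing that the kept feature stood apart, 6 of the 18 were higher and 0 lower in null, with a median of 0.28 and a range of -0.08 to 0.83, where 26.3% of all 35556 features were called higher. Against flox, null Eα gave 11 of 18 higher and 0 lower, with a median of 0.46, where 30.9% of all features were called higher. With the mean over all features in place of the brightest, Nlrc5 differed from flox by 0.352 in null and by 0.480 in null Eα, and both calls remained. As a group, the brighter genes of chromosome 8 lay at -0.56 for null against flox and -0.66 for null Eα against flox. The median of this measure over 20 chromosomes was itself below 0, at -0.17 and -0.22. Chromosome 17 lay at -0.23 and -0.26. The kept Nlrc5 feature thus moved against its chromosome. The differences from flox given for Calr, Rfxank, Bst2 and Psmb10, also on chromosome 8, were not corrected for this. For null Eα against flox, the brighter genes of chromosome 11, which carries Irf1 and Psme3, lay at -0.60. Those of chromosome 6, with Sec61a1, lay at -0.61. In that comparison Psmb10 (-0.33) and Irf1 (-0.31) differed from flox by less than their chromosomes, so neither value is read as specific to the gene.

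Of the measured class I genes, 5 lie in or beside the MHC on chromosome 17, where their neighbours were called in both directions. Along the stretch from Tapbp to H2-D1, 80 other tested genes were compared. Genes with Gm, LOC, Mir, Snor, BC or AK symbols were left out of this set. In null against flox 17 of them were higher and 27 lower, with a median of -0.03, against 5 of 5 higher for Tapbp, Psmb9, Tap1, Psmb8 and Tap2. In null Eα against flox 20 of the 80 were higher and 25 lower, with a median of -0.02. Over all genes 26.5% were called higher and 28.7% lower in null against flox, and 32.1% and 31.6% in null Eα against flox. Whether the neighbours differ from these shares was not tested. The neighbours ran from -1.77 for D17H6S56E-5 to 1.10 for Clic1 in null, and all 5 class I genes lay above that range. In null Eα the neighbours ran from -1.52 for H2-Ke6 to 0.84 for Col11a2, and all 5 class I genes, at -0.16 to 0.81, lay inside that range. H2-DMa, the gene next to Psmb9 among those compared and part of the class II loading machinery, fell by 1.69 ± 0.10 in null (adjusted p = 2.74e-07), and H2-Ob, next to Tap2 and named for its position, was 0.30 ± 0.08 higher (adjusted p = 0.0132).

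**Figure D4:**
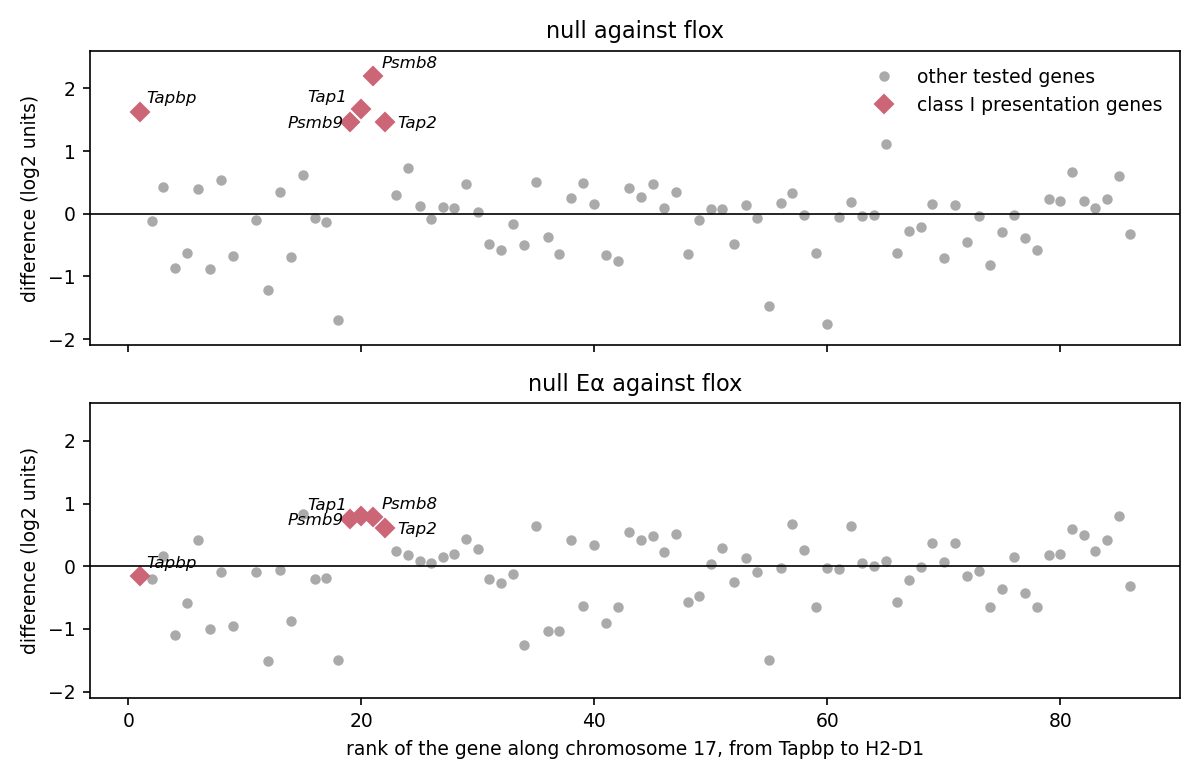
Difference from flox, in log2 units, of tested genes from Tapbp to H2-D1, placed by rank along chromosome 17, for null (top) and null Eα (bottom). Genes with Gm, LOC, Mir, Snor, BC or AK symbols were left out. Diamonds are the 5 class I presentation genes and circles the 80 other genes. In null the 5 diamonds lie between 1.46 and 2.19, above every circle.

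Peptide-loading and trimming partners were called in both directions. Of 10 measured, 5 were higher and 3 lower in null than in flox, 3 higher and 5 lower in null Eα than in flox, and 0 higher and 6 lower in null Eα than in null. The medians were 0.23, -0.16 and -0.26. Among all genes, 26.5% were called higher and 28.7% lower in null against flox. In null Eα the shares were 32.1% and 31.6% against flox, and 13.6% and 18.1% against null. Whether the list differs from these shares was not tested. Pdia3, the disulphide isomerase linked to tapasin, rose by 0.83 ± 0.07 in null (adjusted p = 1.88e-06) and by 0.59 ± 0.07 in null Eα (adjusted p = 3.02e-05). Calr, the chaperone calreticulin of the same complex, fell by 0.97 ± 0.07 (adjusted p = 9.17e-07) and by 1.10 ± 0.07 (adjusted p = 5.73e-07). Sec61a1, a subunit of the protein channel of the endoplasmic reticulum, was 0.46 ± 0.07 lower in null (difference -0.46, adjusted p = 0.000353) and 1.52 ± 0.07 lower in null Eα (difference -1.52, adjusted p = 1.24e-07). Thop1, a peptidase of the cytosol, fell by 0.71 ± 0.09 in null (adjusted p = 5.41e-05) and by 0.75 ± 0.09 in null Eα (adjusted p = 4.34e-05).

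Erap1, the aminopeptidase that trims class I peptides, was named after its values were seen. It read 5.38, 5.44 and 5.63 in flox, 9.11, 8.93 and 9.01 in null, and 6.06, 5.75 and 8.01 in null Eα. Null was far above flox, and null Eα replicate 3 was far above replicates 1 and 2. Erap1 rose by 3.54 ± 0.45 in null, 11.6-fold (adjusted p = 7.21e-05), and fell by 2.41 ± 0.45 from null to null Eα (adjusted p = 0.00279). Null Eα differed from flox by 1.13 ± 0.45 (adjusted p = 0.0501), just outside the threshold. The difference was called, and smaller, at 0.428 without replicate 3 (adjusted p = 0.00902). It was also called without null Eα replicate 1 (1.399, adjusted p = 0.0394) or 2 (1.555, adjusted p = 0.0135) and with each chromosome centred (1.276, adjusted p = 0.0173).

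Other heavy-chain and class I-like genes gave 7 higher and 4 lower of 20 in null against flox, 9 higher and 3 lower in null Eα against flox, and 1 higher and 3 lower in null Eα against null. The medians were 0.17, 0.26 and 0.08. Among all genes, 26.5% were called higher and 28.7% lower in null against flox. In null Eα the shares were 32.1% and 31.6% against flox, and 13.6% and 18.1% against null. Whether the list differs from these shares was not tested. Mr1, which presents vitamin B metabolites with B2m as its light chain, gave 4.90, 5.17 and 4.93 in flox, 6.97, 7.16 and 7.23 in null, and 5.65, 5.56 and 6.01 in null Eα, with no overlap between groups. It rose by 2.12 ± 0.13 in null (adjusted p = 3.09e-07) and was 0.74 ± 0.13 above flox in null Eα (adjusted p = 0.000667). The flox signals of Mr1 were dim, at the 33.2 to 38.0 percentile of their arrays, so these sizes are less certain than their direction. H2-T10 was 1.05 ± 0.16 higher in null (adjusted p = 0.000293) and at 0.33 ± 0.16 in null Eα (adjusted p = 0.097). Procr, a class I-like receptor for protein C, rose by 1.63 ± 0.15 in null (adjusted p = 5.62e-06) and by 1.20 ± 0.15 in null Eα (adjusted p = 6.68e-05). H2-M5 went the other way and fell by 2.38 ± 0.09 in null (adjusted p = 1.5e-08) and by 1.38 ± 0.09 in null Eα (adjusted p = 7.88e-07). The single gene called higher in null Eα than in null became 2 without flox replicate 3, without null replicate 1 or 3, or without null Eα replicate 1 or 3, and with each chromosome centred the list gave 13 higher in null against flox. Of the 31 genes listed, 11 had no feature of their own and were not analysed here.

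Of 28 measured interferon signalling genes and regulators of class I promoters, 9 were higher and 10 lower in null than in flox, 5 higher and 11 lower in null Eα than in flox, and 3 higher and 10 lower in null Eα than in null, with medians of -0.01, -0.11 and -0.16. The first of these counts stand beside 26.5% of all genes called higher and 28.7% called lower, near the shares of the list, so nothing is read from them about the list. Irf1, the interferon-induced activator of class I genes, read 8.22, 8.27 and 8.15 in flox, 9.08, 9.67 and 10.08 in null, and 7.64, 7.38 and 8.70 in null Eα. Null lay above flox, and null Eα lay on both sides of flox, with replicate 3 above. Irf1 rose by 1.40 ± 0.32 in null (adjusted p = 0.00386) and fell by 1.71 ± 0.32 from null to null Eα (adjusted p = 0.0028). Against flox, null Eα was at -0.31 ± 0.32 (adjusted p = 0.411), and at -0.706 and called lower without replicate 3 (adjusted p = 0.0228). The difference over all arrays was 0.295 with each chromosome centred (adjusted p = 0.399).

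The interferon-γ receptor chain Ifngr1 and the kinase Jak2, both named after their values were seen, had a similar order of groups. The other receptor chain Ifngr2 and the kinase Jak1, named in the same way, were not called in null against flox. They differed by -0.12 ± 0.12 (limma adjusted p = 0.407) and 0.10 ± 0.08 (limma adjusted p = 0.318). Ifngr1 gave 6.87, 6.84 and 7.12 in flox, 8.45, 8.12 and 8.19 in null, and 6.86, 6.48 and 7.53 in null Eα. It rose by 1.31 ± 0.22 in null (adjusted p = 0.000508), and null Eα, at 0.01 ± 0.22 from flox (adjusted p = 0.963), overlapped with flox. Jak2 gave 6.36, 6.42 and 6.58 in flox, 7.73, 7.62 and 8.13 in null, and 5.91, 6.04 and 6.64 in null Eα. It rose by 1.38 ± 0.19 in null (adjusted p = 0.000108), and null Eα was at -0.26 ± 0.19 (adjusted p = 0.247), or at -0.475 and called lower without replicate 3 (adjusted p = 0.0151).

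The factors of the X and Y boxes, where Nlrc5 acts, were called in both directions. Of the 8 in the list, tallied after their values were seen, 3 were higher and 4 lower in null than in flox, and 1 was higher and 4 lower in null Eα than in flox. The shares over all genes were 26.5% and 28.7% in null, and 32.1% and 31.6% in null Eα. Whether these factors differ from those shares was not tested. Rfxank, a subunit of the X-box complex, fell by 1.27 ± 0.10 in null (adjusted p = 1.39e-06) and by 1.44 ± 0.10 in null Eα (adjusted p = 7.91e-07), and its partner Rfx5 differed from flox by -0.07 ± 0.14 in null (adjusted p = 0.686). Nfya, a subunit of the Y-box complex, fell by 1.15 ± 0.10 in null (adjusted p = 3.03e-06) and by 1.27 ± 0.10 in null Eα (adjusted p = 1.92e-06). Nfyc, another Y-box subunit, fell by 1.56 ± 0.15 in null (adjusted p = 7.82e-06), whereas Nfyb, the remaining one, rose by 0.40 ± 0.09 (adjusted p = 0.00413). Rfxap, the third X-box subunit, rose by 0.96 ± 0.16 in null (adjusted p = 0.000517) and Creb1, a factor of the X2 box, by 0.72 ± 0.12 (adjusted p = 0.000592). Rela, an NF-κB subunit, was 0.70 ± 0.08 lower in null (difference -0.70, adjusted p = 2.77e-05), and Tyk2, the kinase of type I interferon receptors, fell by 1.23 ± 0.07 (adjusted p = 2.73e-07). With each chromosome centred, the list gave 15 higher in null against flox and 11 in null Eα against flox. The counts for null Eα against null were 5 higher without null Eα replicate 3 and 6 lower without null Eα replicate 2.

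**Figure D5:**
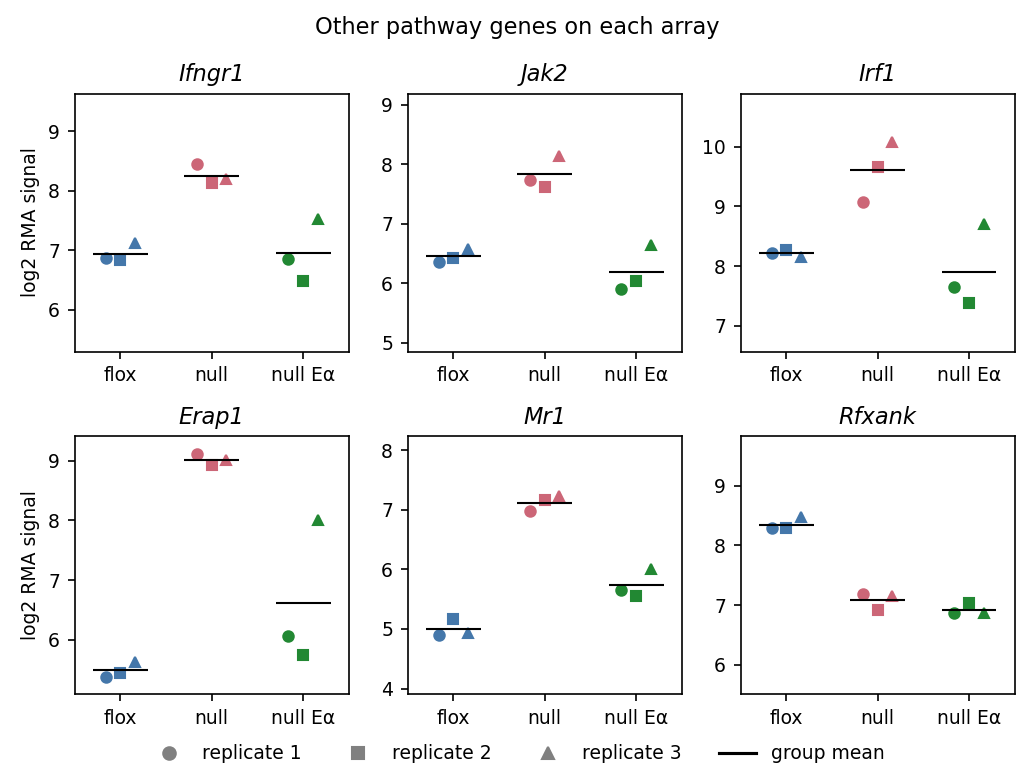
Log2 RMA signal on the 9 arrays of the interferon-γ receptor chain Ifngr1, the kinase Jak2, the activator Irf1, the trimming enzyme Erap1, the B2m partner Mr1 and the X-box factor Rfxank. Symbols are replicates, colours are groups and bars are group means. The null arrays are highest for all but Rfxank, which is highest on the flox arrays, and null Eα replicate 3 is the highest of its group for all but Rfxank.

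Interferon-stimulated genes outside class I presentation gave 10 higher and 4 lower of 18 in null against flox, 3 higher and 4 lower in null Eα against flox, and 2 higher and 7 lower in null Eα against null, with medians of 0.41, 0.20 and -0.16. Among all genes, 26.5% were called higher and 28.7% lower in null against flox. In null Eα the shares were 32.1% and 31.6% against flox, and 13.6% and 18.1% against null. Whether the list differs from these shares was not tested. Ifih1, a sensor of double-stranded RNA, rose by 1.96 ± 0.11 in null (adjusted p = 2.18e-07) and fell by 1.60 ± 0.11 from null to null Eα (adjusted p = 7.6e-06). Its flox signals were dim, at the 20.3 to 23.2 percentile of their arrays, so the size of the rise is less certain than its direction. Cxcl10, Oasl2, Gbp3, Irgm1 and Ifit2, named after their values were seen, were called higher in null by 2.21, 2.15, 2.04, 1.93 and 1.84. All were called lower in null Eα than in null, with differences of -1.76, -1.90, -1.55, -2.37 and -1.56. The flox signals of Cxcl10, Gbp3 and Ifit2 were dim, so the sizes of their rises are less certain. Other genes, among the 4 called lower in null, fell. Ifitm3, a membrane protein that blocks virus entry, fell by 2.75 ± 0.21 in null (adjusted p = 1.45e-06), the RNA sensor Ddx58 by 2.48 ± 0.17 (adjusted p = 7.44e-07) and the virus tether Bst2 by 1.45 ± 0.13 (adjusted p = 5.55e-06). The 3 genes called higher in null Eα than in flox became 1 without flox replicate 3 or null Eα replicate 1, 5 without null replicate 3, and 0 after quantile normalization or centring on array medians.

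The labelled cell type was checked against its markers. Of 11 embryonic stem cell markers, 2 were higher and 9 lower in null than in flox. In null Eα against flox 1 was higher and 6 lower, with a median of -0.38. Against null, null Eα gave 10 higher and 1 lower. The 2 higher became 1 without any 1 of the 3 flox arrays or without null replicate 1 or 3, and the 1 lower became 0 without null replicate 1 or null Eα replicate 1 or 2. Their summed level was 14.75 to 14.76 log2 units in flox, 13.26 to 13.46 in null and 14.49 to 14.53 in null Eα. Esrrb fell by 5.54 ± 0.16 in null (adjusted p = 2.67e-09), while Pou5f1, named after its values were seen, kept a signal of 10.75 to 10.82 there against 11.42 to 11.46 in flox. For the stem cell list and the fibroblast list that follows, the shares over all genes were 26.5% higher and 28.7% lower in null against flox. In null Eα they were 32.1% and 31.6% against flox, and 13.6% and 18.1% against null. Of 14 fibroblast markers, 11 were higher and 0 lower in null than in flox, 12 higher and 0 lower in null Eα than in flox, and 1 higher and 6 lower in null Eα than in null. Their summed level was 9.39 to 9.56 in flox, 12.86 to 13.17 in null and 11.90 to 12.26 in null Eα. Col1a2 rose by 4.82 ± 0.12 in null (adjusted p = 1.35e-09) and Lox by 5.41 ± 0.12 (adjusted p = 8.16e-10). The summed level was thus highest in null, with null Eα between, the order of groups seen for Tap1, Tap2, Psmb8 and Psmb9, but 7 of the 14 markers were not called between null Eα and null, and Twist1 was 0.50 ± 0.17 higher in null Eα than in null (adjusted p = 0.0476). The count of these markers higher in null Eα than in null fell to 0 without any 1 of the 3 flox arrays. It was also 0 without null replicate 2 or 3, or without null Eα replicate 2 or 3. It was 0 again after quantile normalization, median centring of arrays, fitting only the groups compared or adding the replicate block. With each chromosome centred it was 2. The part of these markers in the class I values was not tested. In bulk RNA a change in the number of such cells and a change in RNA per cell cannot be told apart.

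Immune cell markers gave 2 higher and 3 lower of 12 in null against flox, where 26.5% of all genes were called higher and 28.7% lower. Their summed level was 9.98 to 10.03 in flox, 9.19 to 9.30 in null and 9.63 to 9.99 in null Eα. That sum follows its brightest members, chiefly Laptm5, which fell by 2.75 ± 0.17 in null (adjusted p = 3.06e-07), and the median difference over the 12 was -0.0044. Their part in the class I values was not tested. Ptprc, the pan-leukocyte CD45, read 4.06 to 4.44 in flox, 4.42 to 4.48 in null and 4.50 to 4.68 in null Eα, near the lower quartile of the arrays, and differed by 0.16 ± 0.10 between null and flox (adjusted p = 0.203). Endothelial markers gave 0 higher and 3 lower of 6 in null against flox (1 higher without null replicate 1), with summed levels of 8.86 to 9.0 in flox, 8.02 to 8.06 in null and 8.64 to 8.68 in null Eα.

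Null Eα replicate 3 differed from replicates 1 and 2 in the class I genes one by one. It lay above the mean of those replicates by 1.20 log2 units for Tapbp, 0.93 for Tap1, 0.58 for Tap2, 0.52 for B2m and 0.18 for Psmb8, and by -0.15 for Psmb9 and -0.27 for Nlrc5. Without it, null Eα against flox gave 5 of 7 higher and 2 lower, the latter being B2m and Tapbp, and null Eα against null still gave 6 of 7 lower. The number of arrays, 3 per group, limits how firmly these orders within a group can be read.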

How the data were processed

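Transcript levels were measured on 9 arrays, 3 per group, in mouse embryonic stem cells. The authors deposited log2 values for 35556 features, made with RMA per the submitters' processing notes, which give no version. Whether all arrays were normalized together is not given in the sources used here. Per the annotation table, 21789 features had 1 gene symbol, 1621 had several and 12146 were not in it. Those with several were kept out of the gene table. Of the 999 genes with several features the one with the highest mean was kept, without a filter on low values, which gave 19938 genes. A log2 RMA signal has no read depth, so the number of arrays limits the precision. Gene positions, and promoter windows for 7 of the 9 genes, came from RefSeq tables of GRCm38.p6. The build behind the array's features is not given in the sources used here, and the positions describe the genes, not the probes.

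One model with a mean for each group was fitted to the 9 arrays in R 4.3.3 (limma 3.58.1, lmFit then eBayes), with residual degrees of freedom of 6 and a prior of 4.04. Calls required a Benjamini-Hochberg adjusted p, taken over all genes of a comparison, below 0.05. The fit was tested on simulated data. Tables and figures used Python 3.11.15, pandas 2.3.3 and matplotlib 3.10.9. The alternatives were 2 other scalings between arrays, centring by chromosome, a filter on dim genes, the mean over features, a trended robust prior, the compared groups alone, replicate number as a block and each array left out. The members and lists were chosen with earlier results of these data known. From each list, the up to 4 genes with the smallest p in any comparison were named, with Psmb6, Psmb7, Irf1, Rfx5 and Ctnnb1 as counterparts or targets. Genes named after their values were seen are marked as such.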

Additional observations from a re-analysis of the deposited data

How the results depend on the processing

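All 7 class I calls in null against flox and all 6 in null Eα against null were kept, with their direction, under each of the 17 alternatives run, 16 for Psmb8, which lay below the filter on dim genes. The 5 calls of null Eα against flox were kept as well. The largest adjusted p among the kept calls was 0.048, for Tap1 in null Eα against null. For null Eα against flox, B2m turned to 0.018 after quantile normalization, and Tapbp to 0.152 after it and to 0.094 with each chromosome centred. Without single arrays, B2m ranged from -0.448 to -0.16, Tapbp from -0.564 to 0.082, and the count of class I genes called lower from 0 to 2. The cause was not tested. Without dim genes 8033 genes were called in null Eα against flox, against 12694, as fewer genes were tested. With each chromosome centred, the median over all genes moved from 0.06, 0.07 and 0.05 to 0.21, 0.31 and 0.14 in the 3 comparisons. The class I differences from flox were then 1.302 for B2m to 2.422 for Psmb8 in null. Adding the replicate block gave 11298, 12935 and 6602 called genes, against 11004, 12694 and 6330, and changed no class I call. With it Erap1 was called in null Eα against flox (1.127, adjusted p = 0.0306). The labels tie the replicate numbers to nothing shared, and same-numbered arrays deviated together at correlations of -0.03 to 0.26, against -0.20 to 0.14 for different numbers, so the numbers were not taken to pair the arrays. Not every array was closest to its own number, but 12 of the 18 array and group pairs were, a hint from the data of shared handling.

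Among the other named genes the sign turned where the difference was near 0 or with each chromosome centred. In null against flox, Psmb6 turned to -0.028 with arrays centred on their medians and ranged from -0.016 to 0.027 without single arrays, and Rfx5 turned to 0.116 after quantile normalization. In null Eα against flox, chromosome centring gave 0.212 for Psmb6, 0.176 for Psmb7, 0.331 for Psmb10, 0.295 for Irf1 and 0.043 for Jak2, quantile normalization gave 0.064 for Psmb7, and median centring gave -0.07 for Ifngr1. Without single arrays Psmb7 ranged from -0.112 to 0.015 and Ifngr1 from -0.273 to 0.251. In null Eα against null, Thop1 turned to 0.08 after quantile normalization and to 0.02 with chromosomes centred, where Psme3 turned to 0.013 and Ctss to 0.218. Without single arrays Thop1 ranged from -0.116 to 0.015 and Ctss from -0.088 to 0.019.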

Other observations

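The MHC class II pathway, which shows peptides to CD4+ T cells and shares the chromosome 17 region, was measured for 9 genes. In null against flox 3 were higher and 2 lower, with a median of 0.11 log2 units, where 26.5% of all genes were called higher and 28.7% lower, and the list was not tested against the class I genes. Cd74, the invariant chain, fell by 1.53 ± 0.13 in null (limma adjusted p = 3.17e-06) and by 2.05 ± 0.13 in null Eα (adjusted p = 5.59e-07). H2-DMa, which exchanges class II peptides, fell by 1.69 ± 0.10 in null and by 1.49 ± 0.10 in null Eα (adjusted p = 9.26e-07). H2-Ab1, a class II β chain, was 0.72 ± 0.10 higher in null (adjusted p = 0.000126) and at 0.19 ± 0.10 in null Eα (adjusted p = 0.124). Ctss, the protease that trims the invariant chain, was 0.34 ± 0.09 higher in null (adjusted p = 0.00826), a call lost after quantile normalization (0.195, adjusted p = 0.0847) and with each chromosome centred (0.219, adjusted p = 0.0983).

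Ligands of natural killer cell receptors, which report on cells together with class I, were measured for 6 of 14 listed genes. In null Eα against flox 4 were lower and 2 higher, with a median of -0.61, where 31.6% of all genes were called lower and 32.1% higher. Pvr, a ligand of DNAM-1, fell by 1.58 ± 0.18 in null Eα (adjusted p = 4.23e-05) and Raet1d, a ligand of NKG2D, by 1.73 ± 0.22 (adjusted p = 7.96e-05). H60b, another NKG2D ligand, fell by 1.17 ± 0.11 in null (adjusted p = 8.05e-06). Clec2d, a ligand of the inhibitory receptor Nkrp1d, was 0.85 ± 0.10 higher in null (adjusted p = 2.71e-05). Its signal was dim, at the 9.9 to 12.2 percentile of the flox arrays and 19.2 to 25.3 of the null arrays. The size of that rise is therefore uncertain. The Pvr call in null against flox (-0.61 ± 0.18, adjusted p = 0.0169) was lost without flox replicate 3 or null replicate 2 (-0.543 and -0.484).

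Among 5976 genes with a range of at least 1 log2 unit, those whose signal followed B2m most closely over the 9 arrays were Cd59a, Senp8, Dlg4 and Slc25a51, at Pearson r of 0.989, 0.989, 0.989 and 0.987. Tapbp reached 0.964, Tap2 0.825, Psmb8 0.812, Tap1 0.778, Psmb9 0.685 and Nlrc5 0.241. The arrays share 3 group means, so these values mainly describe the order of the groups. The same ranking for H2-K1 was not run, since it has no feature of its own.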
